A study of Homo sapiens with 12 samples.

Results

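The YPEL genes, named after the Yippee protein of Drosophila, were described across 3 human hepatocellular carcinoma (HCC) cell lines treated with an mTOR inhibitor, an SHP2 inhibitor or both. They were chosen by their family name with the values of all 12 libraries known, so their values are given as a description and without a test. The table of 11548 genes held 4 of them, YPEL1, YPEL2, YPEL3 and YPEL5, and YPEL4 was on 0 of its lines. Hep3B, Huh7 and MHCC97H cells each gave 1 RNA-seq library per treatment, so no library has a replicate. Hep3B and Huh7 are long-established lines from liver tumours and MHCC97H is a line selected for metastasis. All 3 carried no engineered change per the labels (WT) and were grown without treatment, with AZD8055, with compound #57, or with both. AZD8055 blocks the kinase mTOR in both of its complexes, and compound #57 is an inhibitor of the phosphatase SHP2, which passes signals from receptor tyrosine kinases to RAS. AZD8055 was given at 100 nM, and in the combination compound #57 was given at 5 µM. The dose of compound #57 alone in the sequenced cells is not given in the sources used here. Drugs were present for 48 h in Hep3B and Huh7 and for 24 h in MHCC97H, so that exposure time and this cell line cannot be told apart.

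YPEL proteins are small zinc-binding proteins that have been kept almost unchanged from insects to humans. YPEL3 is known as a gene induced by p53 that holds back cell growth and can bring on senescence. YPEL5 is a component of the CTLH complex, a ubiquitin ligase built from RANBP9, MAEA, RMND5A and other subunits. The roles of YPEL1 and YPEL2 are less well known, and both proteins have been placed at the nucleus and the centrosome. mTOR signalling drives protein synthesis and cell growth, and SHP2 is needed for full activation of the RAS-MAPK cascade.

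On hg38 with GENCODE 44, YPEL1 lies at chr22:21697536-21735794 on the minus strand and YPEL2 at chr17:59331655-59401729 on the plus strand. YPEL3 lies at chr16:30092314-30096915 on the minus strand and YPEL5 at chr2:30146941-30160533 on the plus strand. Their coding sequences span 357 bases in YPEL1 and YPEL2, 471 in YPEL3 and 363 in YPEL5. YPEL1 and YPEL2 were the closest pair, with 80.7% identity over their aligned coding bases, and YPEL3 and YPEL5 the most distant one, with 41.5%. A stretch of 60 coding bases is shown for each gene because it is the stretch in which the other genes are most like YPEL2, and it still tells them apart. It starts at coding base 241 in YPEL1 and YPEL2, at 355 in YPEL3 and at 223 in YPEL5, each read 5′ to 3′ from the annotated transcript, and capitals mark the bases that differ in at least 1 of the 4 genes.

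YPEL1: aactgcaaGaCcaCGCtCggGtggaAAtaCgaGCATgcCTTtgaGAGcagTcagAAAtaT
YPEL2: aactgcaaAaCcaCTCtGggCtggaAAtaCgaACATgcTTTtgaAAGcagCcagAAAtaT
YPEL3: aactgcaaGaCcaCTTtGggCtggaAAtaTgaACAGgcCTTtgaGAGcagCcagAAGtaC
YPEL5: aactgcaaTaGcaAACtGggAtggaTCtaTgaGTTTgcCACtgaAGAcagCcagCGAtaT

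Of these 60 bases, 35 were the same in all 4 genes. YPEL1 and YPEL3 each shared 52 with YPEL2, and YPEL5 shared 42. Despite this likeness, no run of 50 bases in a canonical transcript occurred in another YPEL gene (0 of 4248 such runs in YPEL1, and likewise 0 in the others), so a read of that length could be placed on 1 YPEL gene. In YPEL1, 33 of the 4248 runs (0.777%) occurred in transcripts of other genes. YPEL1 also overlaps PPIL2 on the opposite strand by 2480 bases. The libraries were stranded per the labels, while it is not given in the sources used here whether reads were counted by strand. The level of PPIL2 did not follow that of YPEL1. Its log2-fold change with the combination was -0.64 in Hep3B, -0.40 in Huh7 and -0.016 in MHCC97H.

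Before the levels of the YPEL genes, the libraries and the cell lines were checked. The libraries held between 10659951 and 15957252 reads. The 9 hepatocyte markers (ALB, AFP, APOA1, APOB, TTR, SERPINA1, TF, FGB and HNF4A) added up to between 210769 and 600951 reads per 10000000 in Hep3B and between 335895 and 512212 in Huh7. In MHCC97H they added up to between 1430 and 3470, far below the other lines. TTR stood at 0 to 3 reads in this line, while ALB stood at 203 to 834 and HNF4A at 775 to 2041. Of 7 epithelial and other markers, 6 were in the table, and their sum ranged from 36731 to 64349 reads per 10000000 over the 3 lines. The keratin KRT8 had 18714 reads or more in each library. The epithelial EPCAM had 3439 to 6490 reads in Hep3B, 594 to 1248 in Huh7 and 4 to 13 in MHCC97H. The mesenchymal VIM had 5180 reads or more in Hep3B and Huh7 and 63 to 116 in MHCC97H, and COL1A1 of fibroblasts had between 13 and 1069 in the 3 lines. The endothelial PECAM1 had 371 to 617 reads in MHCC97H and at most 89 in the others. PTPRC, the marker of blood cells, was not in the table. Whether the marker levels of MHCC97H bear on the YPEL values was not tested. In bulk RNA, more mRNA per cell and more cells that hold the mRNA cannot be told apart.

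All 4 YPEL genes were higher with either drug than in untreated cells of the same line, and highest with both drugs. For YPEL1 in MHCC97H and YPEL3 in Hep3B and Huh7, the combination and AZD8055 alone did not differ beyond counting error. The same held for compound #57 and untreated cells for YPEL1 in MHCC97H. The order from lowest to highest was untreated, compound #57, AZD8055 and combination in 10 of 12 pairs of gene and cell line. In the other 2, YPEL2 and YPEL5 in Hep3B, compound #57 stood above AZD8055. The share of all pairs of gene and cell line with the first order was not computed. For YPEL5 in Huh7 the single drugs lay close together, at 585 reads per 10000000 with AZD8055 and 581 with compound #57. In the same order, YPEL3 stood at 256 and 227 in Hep3B and at 74.0 and 54.6 in Huh7. No counting interval was computed between the single drugs, so their order in such pairs is not established. Of all genes, 5.28% had their lowest level untreated and their highest level with the combination in all 3 lines. Levels below are reads per 10000000 reads of the library, in the order untreated, compound #57, AZD8055 and combination.

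**Figure D1:**
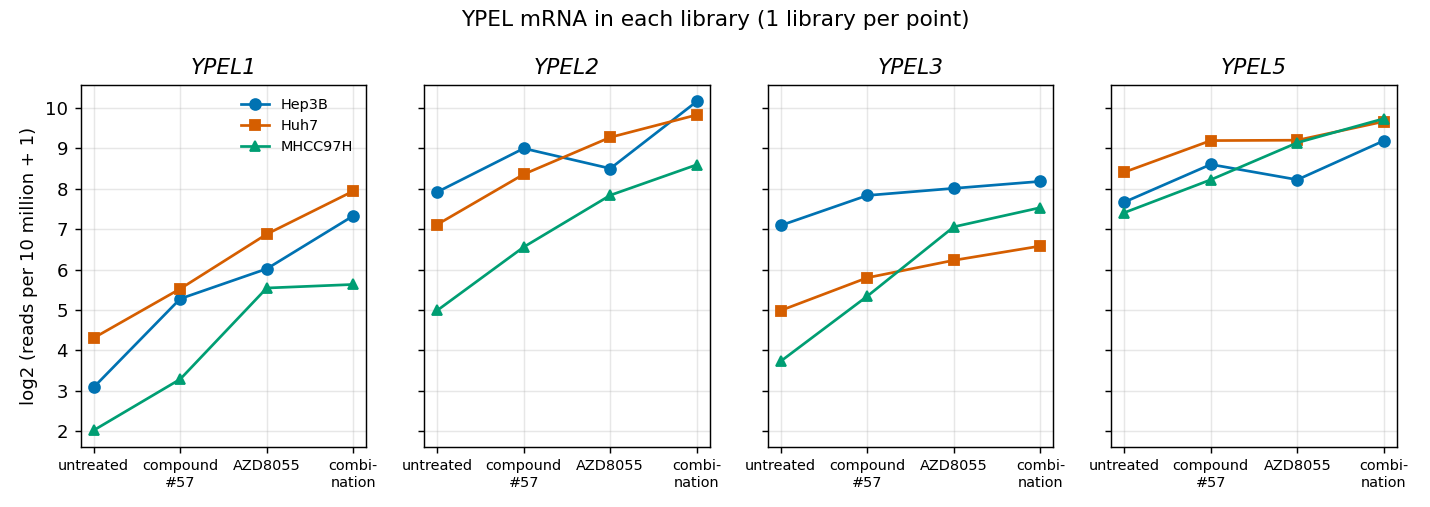
Level of YPEL1, YPEL2, YPEL3 and YPEL5 (y axis, log2 of reads per 10000000 plus 1) by treatment (x axis) in Hep3B, Huh7 and MHCC97H, with 1 library per point and no error bars because there were no replicates. The untreated library is lowest and the combination highest for each gene in each of the 3 lines, and YPEL1 in MHCC97H spans 2.03 to 5.63. The combination and AZD8055 alone lie within counting error of each other for YPEL1 in MHCC97H and YPEL3 in Hep3B and Huh7.

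YPEL1 was the least abundant member per length and had the largest mean changes of the 4 against untreated cells, although in MHCC97H YPEL3 stood above it with the combination (log2-fold change 3.80 against 3.60). In Hep3B it stood at 7.51, 37.8, 63.8 and 159.6. In Huh7 it stood at 18.8, 45.0, 116 and 244. In MHCC97H it stood at 3.07, 8.78, 45.6 and 48.5. Each untreated library was therefore below each of the libraries with AZD8055 or the combination, whatever the cell line. These levels rested on few reads, with 8, 30 and 4 reads in the untreated Hep3B, Huh7 and MHCC97H libraries against 197, 284 and 60 with the combination. As a ratio of reads corrected for library size, the combination was 21.3 times untreated in Hep3B, with a 95% Clopper-Pearson interval on the log2 scale of 3.40 to 5.64. The ratio was 13.0 in Huh7 (log2 interval 3.16 to 4.29) and 15.8 in MHCC97H (log2 interval 2.55 to 5.90). Such intervals cover counting error only, not the spread between cultures. In MHCC97H the difference between compound #57 and untreated was 10 against 4 reads, with a log2 interval of -0.28 to 3.64, and was not detectable at this depth. In the same line the combination and AZD8055 alone did not differ beyond counting error, with a log2 ratio of 0.089 (interval -0.44 to 0.62). Over the 3 lines, the mean log2 level was 3.14 ± 1.14 (SD, n = 3 cell lines) untreated, 4.70 ± 1.22 with compound #57, 6.15 ± 0.67 with AZD8055 and 6.97 ± 1.20 with the combination. The last 2 means lie closer together than the spread between the lines, while within each line the combination was above AZD8055 by 0.088 to 1.31.

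YPEL2, the closest relative of YPEL1, was more abundant per length, and its difference from untreated cells was smaller on average. Its level was 240.2, 508, 359.9 and 1139 in Hep3B. In Huh7 the level was 137, 326, 615 and 904. In MHCC97H the level was 30.7, 93.1, 227 and 384. The groups overlapped between cell lines, since untreated Hep3B cells held more YPEL2 than MHCC97H cells with AZD8055. Within each line, all 3 treated libraries were above the untreated one. The mean log2 level was 6.67 ± 1.51 untreated, 7.97 ± 1.26 with compound #57, 8.53 ± 0.72 with AZD8055 and 9.52 ± 0.82 with the combination, and each step between neighbours in this order was smaller than the larger of their SDs, save that from AZD8055 to the combination. In Hep3B, compound #57 was followed by the larger change, with a log2-fold change of 1.08 against 0.58 for AZD8055. In Huh7 and MHCC97H the order was the other way round, with 1.24 and 1.57 for compound #57 against 2.16 and 2.85 for AZD8055.

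YPEL3, the member tied to p53, differed most between the untreated cell lines. In Hep3B, the level was 135, 227, 256 and 289. In Huh7, it was 30.7, 54.6, 74.0 and 94.7. In MHCC97H, it was 12.3, 39.5, 132 and 184. Untreated Hep3B cells thus held more YPEL3 than any Huh7 library and more than 3 of the 4 MHCC97H libraries. Hep3B is known to lack p53, and whether p53 bears on the YPEL3 levels of any line was not tested. The YPEL3 level in Hep3B was higher with each treatment, with a log2-fold change of 0.74 for compound #57, 0.92 for AZD8055 and 1.09 for the combination. With compound #57 added to AZD8055, YPEL3 did not differ from AZD8055 alone beyond counting error in Hep3B (log2 ratio 0.17, interval -0.051 to 0.40) and Huh7 (0.36, interval -0.060 to 0.78). In MHCC97H the ratio was 0.48 (interval 0.19 to 0.76). The mean log2 level was 5.27 ± 1.70 untreated, 6.32 ± 1.33 with compound #57, 7.10 ± 0.89 with AZD8055 and 7.43 ± 0.80 with the combination, and neighbours in this order lie closer together than the spread between lines. Within each of the 3 lines, the YPEL3 level was higher at every step of this order. The last step lay within counting error in Hep3B and Huh7, as given above. No counting interval was computed for the step from compound #57 to AZD8055, which was from 227 to 256 in Hep3B and from 54.6 to 74.0 in Huh7.

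YPEL5, the CTLH component, was the most even member. In Hep3B its level was 202, 386, 297 and 580.2. In Huh7 its level was 338, 581, 585 and 806. In MHCC97H its level was 168, 297, 561 and 847. The log2-fold change with compound #57 was nearly the same in the 3 lines, at 0.93 in Hep3B, 0.78 in Huh7 and 0.82 in MHCC97H. With AZD8055 it ranged from 0.56 in Hep3B through 0.79 in Huh7 to 1.73 in MHCC97H. The mean log2 level was 7.82 ± 0.52 untreated, 8.67 ± 0.49 with compound #57, 8.85 ± 0.55 with AZD8055 and 9.52 ± 0.30 with the combination. The means of both single drugs lie closer together than the spread between lines, and untreated cells and the combination did not overlap.

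**Figure D2:**
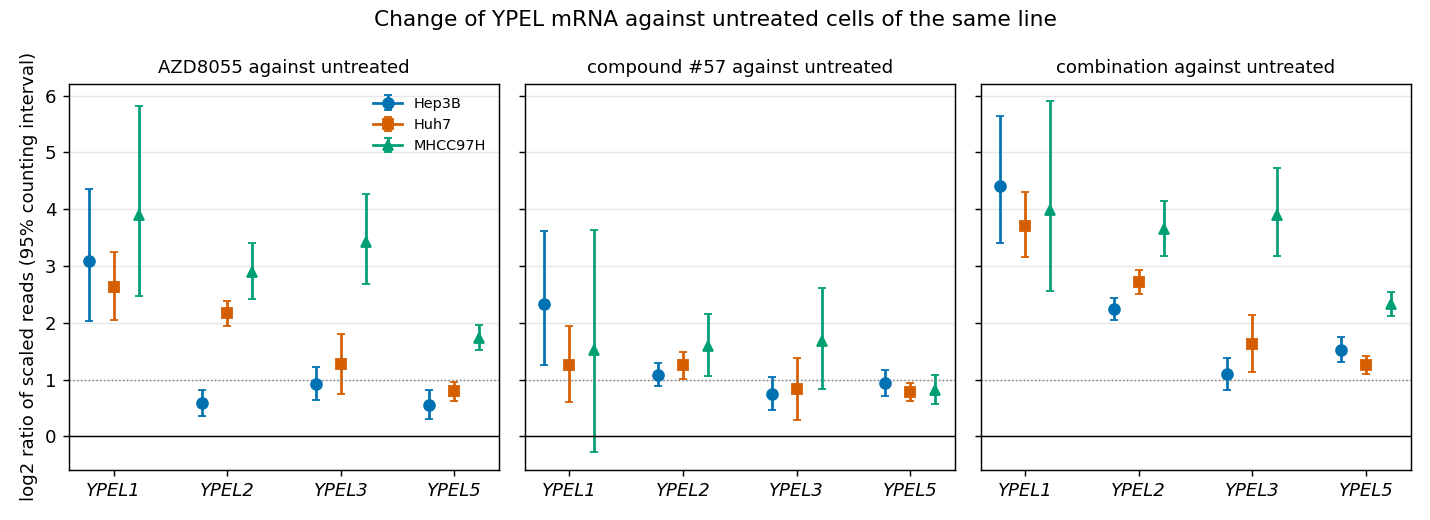
Log2 ratio of scaled reads (y axis) of each treatment to untreated cells of the same line, for the 4 YPEL genes (x axis) in Hep3B, Huh7 and MHCC97H. Bars are 95% Clopper-Pearson intervals that cover counting error only, the solid line marks no change and the dotted line a 2-fold increase. Only the interval of YPEL1 in MHCC97H with compound #57 reaches below 0.

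The question of the first comparison was what mTOR inhibition by itself did. With AZD8055 the mean log2-fold change over the cell lines was 3.00 ± 0.48 (SD, n = 3 cell lines) for YPEL1, 1.86 ± 1.16 for YPEL2, 1.83 ± 1.30 for YPEL3 and 1.03 ± 0.62 for YPEL5. These and all later log2-fold changes are differences of the log2 of reads per 10000000 plus 1, so the change of a gene with few reads comes out smaller than its ratio of reads. The mean change of YPEL1 ranked 2 among 11548 genes and that of YPEL5 ranked 406. No listed gene had a mean log2 level below 4.65 over the libraries, while YPEL1 had 3.14 in untreated cells and 6.15 with AZD8055. If the table was cut on that mean, YPEL1 was listed through the libraries in which it was high. Its rank and the shares of all genes hold among listed genes only and are no support for its change. All 4 genes were higher in all 3 lines, as were 28.4% of all genes. YPEL1 was the 1 member that was at least 2-fold higher in all 3 lines, where 0.693% of all genes were. All 12 counting intervals lay above 0. The share of all genes with such intervals was not computed, so nothing particular to the YPEL genes is read from this count or the later ones. For each gene the change was largest in MHCC97H, and the median over the 4 genes was 0.75 in Hep3B, 1.70 in Huh7 and 3.09 in MHCC97H, beside medians of all genes between -0.016 and 0.055. Without MHCC97H the mean was 2.75 for YPEL1, 1.37 for YPEL2, 1.08 for YPEL3 and 0.67 for YPEL5, and without Hep3B that of YPEL2 was 2.50. MHCC97H was also the line with the lowest untreated level of each YPEL gene, the shorter exposure and few hepatocyte transcripts, and their parts cannot be told apart.

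The second comparison asked what SHP2 inhibition alone did. With compound #57 the mean log2-fold change was 1.56 ± 0.55 for YPEL1, 1.30 ± 0.25 for YPEL2, 1.05 ± 0.48 for YPEL3 and 0.84 ± 0.080 for YPEL5. This contrast shares its untreated libraries with the first and the third one. All 4 were higher in all 3 lines (30.6% of all genes). YPEL1 and YPEL2 were at least 2-fold higher in all 3 lines (0.572% of all genes). For YPEL1 in MHCC97H this rested on 10 against 4 reads, with a log2 interval of -0.28 to 3.64. The log2 intervals of YPEL1 in Huh7 (0.61 to 1.94) and YPEL2 in Hep3B (0.88 to 1.29) also reached below a 2-fold change. With 10 instead of 1 added before the log2, the mean of YPEL1 was 0.97, below a 2-fold change. The cell lines were closer together than with AZD8055, with a median over the 4 genes of 1.01 in Hep3B, 1.01 in Huh7 and 1.42 in MHCC97H. Of the 12 counting intervals, 11 lay above 0.

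The third comparison asked what both drugs did together. With the combination the mean log2-fold change was 3.83 ± 0.36 for YPEL1, 2.85 ± 0.69 for YPEL2, 2.16 ± 1.44 for YPEL3 and 1.70 ± 0.56 for YPEL5. In ranks among all listed genes, these were 4 for YPEL1, 27 for YPEL2, 123 for YPEL3 and 285 for YPEL5, with the limit given above for YPEL1. All 4 genes were higher in all 3 lines, beside 33.4% of all genes, and all 4 were at least 2-fold higher in each line, beside 3.05% of all genes. The log2 counting interval of YPEL3 in Hep3B, 0.81 to 1.38, reached below a 2-fold change. Without MHCC97H the means over Hep3B and Huh7 were 3.94 for YPEL1, 2.48 for YPEL2, 1.34 for YPEL3 and 1.39 for YPEL5. The spread of the log2 level between the lines was smaller with the combination than in untreated cells for YPEL2 (SD 0.82 against 1.51), YPEL3 (0.80 against 1.70) and YPEL5 (0.30 against 0.52), and about the same for YPEL1 (1.20 against 1.14).

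The last 2 comparisons took each drug on top of the other. The one against compound #57 alone assumes the same dose of compound #57 in both, and the dose alone is not given. Against AZD8055 alone, the combination was higher by a mean log2-fold change of 0.82 ± 0.65 for YPEL1, 0.99 ± 0.59 for YPEL2, 0.33 ± 0.15 for YPEL3 and 0.67 ± 0.26 for YPEL5. All 4 genes were higher in all 3 lines (23.7% of all genes), and 0 of 4 were at least 2-fold higher in all 3 (0.251% of all genes). Of these 12 counting intervals, 9 lay above 0, with YPEL1 in MHCC97H and YPEL3 in Hep3B and Huh7 as the others. Without Hep3B the mean of YPEL2 was 0.65. Against compound #57 alone, the combination was higher by 2.27 ± 0.19 for YPEL1, 1.55 ± 0.44 for YPEL2, 1.11 ± 0.96 for YPEL3 and 0.86 ± 0.57 for YPEL5. Again all 4 genes were higher in all 3 lines (26.3% of all genes), YPEL1 and YPEL2 were at least 2-fold higher in each (0.528% of all genes), and all 12 counting intervals lay above 0. Without MHCC97H the mean was 0.56 for YPEL3 and 0.53 for YPEL5.

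The change with both drugs was also set against the sum of the changes with each drug. In 10 of 12 pairs of gene and cell line it was below that sum on the log2 scale. The same held for 51.5% of all pairs of gene and cell line, and for 72.5% of those that were higher with each drug alone. The changes with each drug share the untreated library, and nothing particular to the YPEL genes is read from this count. The difference from the sum was -0.74 ± 0.53 (SD, n = 3 cell lines) for YPEL1, -0.31 ± 0.77 for YPEL2, -0.72 ± 0.36 for YPEL3 and -0.17 ± 0.18 for YPEL5, with a median of -0.011 over all genes. The exceptions were again YPEL2 and YPEL5 in Hep3B, which were above the sum by 0.58 and 0.031. In MHCC97H the shortfall was 1 or more on the log2 scale for YPEL1 and YPEL3, at -1.18 and -1.13. For YPEL1 the sum in this line held the change with compound #57, which rested on 10 against 4 reads (log2 interval -0.28 to 3.64). Its shortfall there thus rests on a change that was not detectable at this depth. No test was made of these differences.

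**Figure D3:**
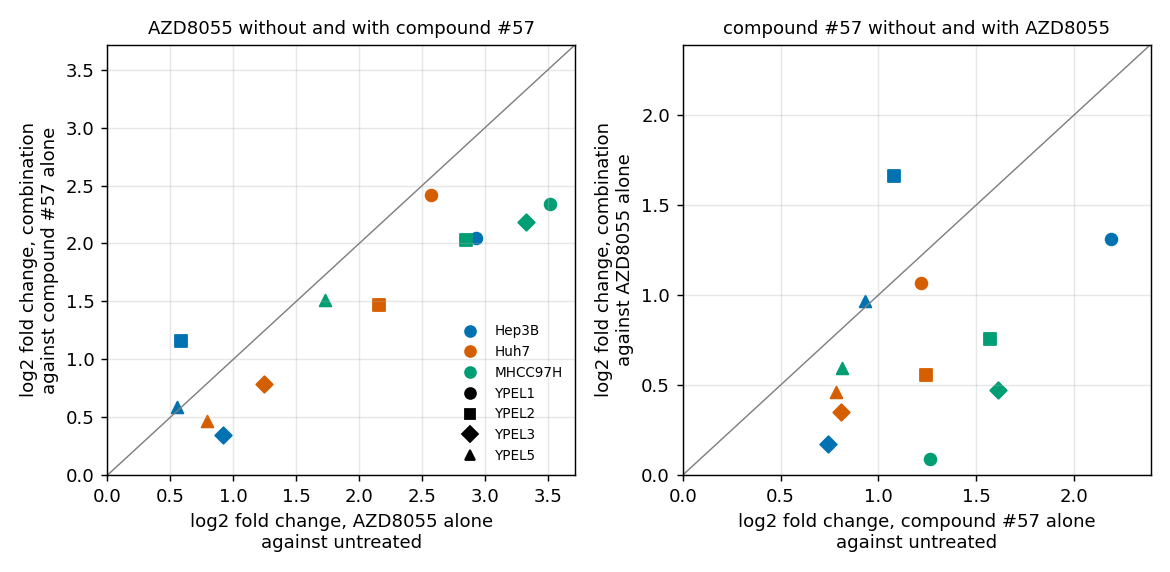
Log2-fold change of each YPEL gene (marker shape) in each cell line (colour) for a drug alone against untreated cells (x axis) and for the same drug added to the other one (y axis), with AZD8055 on the left and compound #57 on the right. Each point comes from 4 libraries without replicates and the line marks equal change. The dose of compound #57 alone is not given and is taken as that of the combination. Points below the line are pairs in which the combination was below the sum of both drugs, 10 of 12 in each panel.

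Levels of different members were compared per length of the canonical transcript, as reads scaled to library size and transcript length (RPKM). The sum over the 4 genes was 22.6 in Hep3B, 20.8 in Huh7 and 9.30 in MHCC97H without treatment. With the combination the sum was 70.5, 66.5 and 59.6 in the same order, which was 3.12, 3.20 and 6.40 times the untreated sum. YPEL5 took the largest share in 11 of 12 libraries, with 84.7% in untreated MHCC97H cells as its highest share. In Hep3B with AZD8055, YPEL3 stood above YPEL5 with 41.8% against 36.4%. YPEL1 took between 0.769% and 8.55% and was lowest in each library. From untreated cells to the combination, the share of YPEL2 moved from 20.2% to 30.7% in Hep3B, from 12.5% to 25.8% in Huh7 and from 6.28% to 12.3% in MHCC97H. The share of YPEL3 moved from 37.3% to 25.5% in Hep3B and from 8.26% to 19.3% in MHCC97H, while it was 9.23% and 8.89% in Huh7. These shares assume that each gene was read from its canonical transcript alone.

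**Figure D4:**
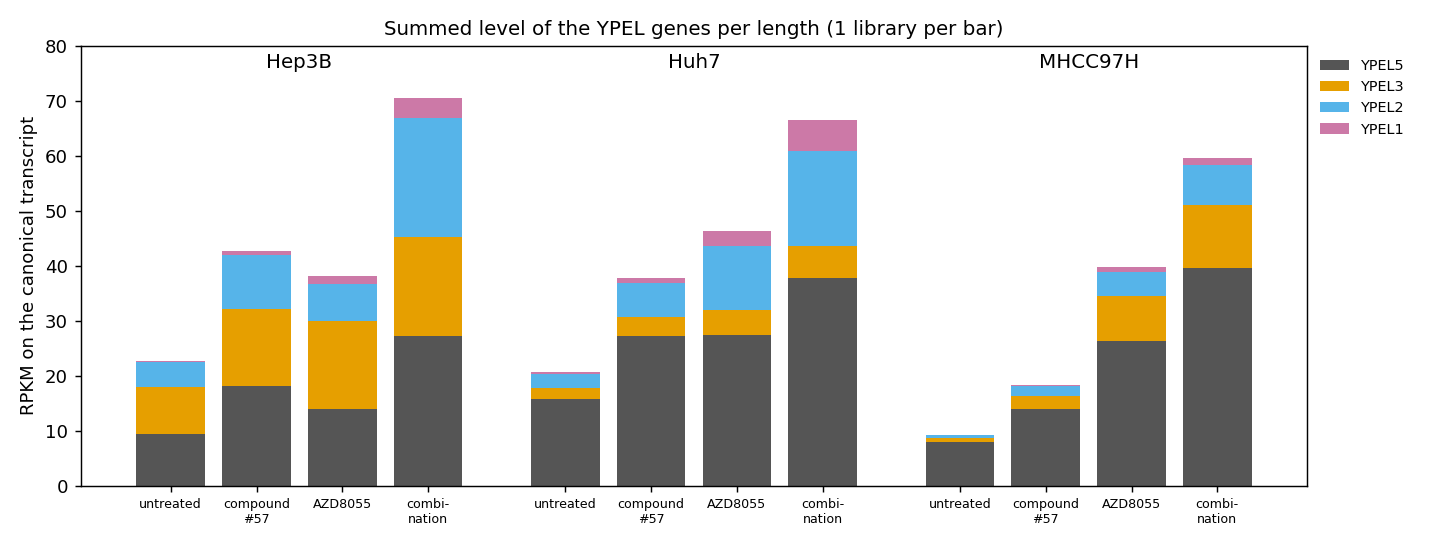
Summed level of YPEL1, YPEL2, YPEL3 and YPEL5 (y axis, RPKM on the canonical transcript) in each of the 12 libraries (1 bar each, no replicates), with 1 colour per gene. The combination has the tallest bar in each line, from 59.6 in MHCC97H to 70.5 in Hep3B, and YPEL5 is the largest segment in all bars but that of Hep3B with AZD8055.

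The 300 bases around the start of transcription are shown for the 3 genes that the RefSeq promoter table (GRCh38.p14) held, because the genes were high in the same libraries. They cover chr17:59331405-59331704 on the plus strand for YPEL2, chr16:30096164-30096463 on the minus strand for YPEL3 and chr2:30146757-30147056 on the plus strand for YPEL5. Each is read 5′ to 3′ with 250 bases before the start, and capitals mark a GTAAACA, the core of the motif of forkhead factors. The starts are those of RefSeq, and the YPEL3 window lies wholly inside the gene as placed above by GENCODE.

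YPEL2: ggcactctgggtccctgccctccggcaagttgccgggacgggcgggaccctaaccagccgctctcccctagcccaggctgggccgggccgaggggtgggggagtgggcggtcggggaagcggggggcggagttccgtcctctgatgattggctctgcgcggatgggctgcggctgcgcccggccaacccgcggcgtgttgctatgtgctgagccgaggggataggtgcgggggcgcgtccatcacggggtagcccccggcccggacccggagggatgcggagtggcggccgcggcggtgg
YPEL3: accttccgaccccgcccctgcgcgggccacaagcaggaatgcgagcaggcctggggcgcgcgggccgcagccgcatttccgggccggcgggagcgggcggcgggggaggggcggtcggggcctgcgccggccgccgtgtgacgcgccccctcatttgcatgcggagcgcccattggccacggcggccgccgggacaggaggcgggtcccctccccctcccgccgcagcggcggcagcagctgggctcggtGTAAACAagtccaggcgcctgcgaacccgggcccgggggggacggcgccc
YPEL5: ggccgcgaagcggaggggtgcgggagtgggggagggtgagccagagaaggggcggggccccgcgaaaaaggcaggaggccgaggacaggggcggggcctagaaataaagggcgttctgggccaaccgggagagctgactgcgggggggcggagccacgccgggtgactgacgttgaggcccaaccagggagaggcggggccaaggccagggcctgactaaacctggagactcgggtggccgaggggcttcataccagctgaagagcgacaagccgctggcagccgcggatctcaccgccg

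Their GC content was 75%, 79% and 70.0%, beside a median of 58.7% over all 35116 promoters and 65.0% over those of genes in the table. Of 6 motifs searched on both strands, GTAAACA was in YPEL3, where it begins at base 1 after the RefSeq start, and it was in 3.42% of all promoters. The other 5 were in none of the 3 windows. These were CACGTG (7.26% of all promoters), TGACGTCA (1.85%), TGACTCA (4.95%), CCGGAAGT (4.14%) and TATAAA (11.5%). No motif was shared by the 3 windows.

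The neighbours of the YPEL genes that are reported here showed no common pattern. Near YPEL1, SDF2L1, a chaperone partner of the endoplasmic reticulum, was lower with the combination than in untreated cells in all 3 lines, with a mean log2-fold change of -2.12. MAPK3, which codes for the kinase ERK1 and lies 17.9 kb from YPEL3, differed by -0.25, -0.048 and 1.09 in Hep3B, Huh7 and MHCC97H, and the phosphatase gene PPP4C on its other side by -0.098, -0.093 and -0.28. Beside YPEL2, DHX40 was higher by 0.65, 0.43 and 1.11, and GDPD1 differed by -1.02, -0.21 and 1.02. Beside YPEL5, LBH was higher by 2.10, 0.83 and 2.45 from as few as 1 read, and CLIP4, 963 kb away, differed by -0.098, 0.87 and 0.35.

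The levels of the 4 genes followed each other across the libraries. After the mean of each cell line was subtracted, Pearson's r over the 12 libraries ranged from 0.87 for YPEL1 and YPEL3 to 0.97 for YPEL2 and YPEL5. All points share the 4 treatments, the 3 cell lines and the depth of their libraries, and many genes reached such values. For YPEL1, YPEL3 stood at place 671 among 11219 genes with reads in every library, while for YPEL2, YPEL5 stood at place 8. The gene most like YPEL5 was HERPUD2 (r = 0.995), followed by the autophagy gene GABARAPL1 (0.990), VPS39 of the HOPS tethering complex (0.990), ALKBH7 (0.980) and MIEF2 (0.979). YPEL3 was most like PTPN6 (0.992), the phosphatase SHP1, and then ORAI3 (0.990), ING4 (0.980), PBXIP1 (0.978) and ZER1 (0.976). The genes most like YPEL2 were HECA (0.984), KLHL36 (0.978), KLHL24 (0.975), CHURC1 (0.975) and MFSD6 (0.975). Those most like YPEL1 were SLC38A9 (0.986), a lysosomal amino acid sensor upstream of mTORC1, R3HDM2 (0.983), DNAL4 (0.982), RAB11B (0.982) and C12orf76 (0.977). Likeness in pattern was not likeness in size, since SLC38A9 had a mean log2-fold change of 0.60 with the combination against 3.83 for YPEL1.

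Genes with ties to the family were tested with limma over the 12 libraries, with cell line as a term and Benjamini-Hochberg adjustment over all 11548 genes. The mean changes have n = 3 cell lines. The tests rested on the single libraries of each line and treatment, and no gene of the YPEL family was tested. Lists are given by counts beside the share of all genes called. With AZD8055, 2.21% of all genes were called higher and 0.753% lower. With compound #57, 0.00866% were called higher and 0.0% lower by limma, while 2501 genes had an unadjusted p under 0.05 and voom on the reads called 18 higher and 7 lower. With the combination, 20.9% were called higher and 15.1% lower, which was 2410 and 1744 genes, and with libraries centred on their medians it was 1993 and 2229. With the same centring, the 255 and 87 genes called higher and lower with AZD8055 became 256 and 217. The counts depended on each cell line. For AZD8055, compound #57 and the combination in this order, 0, 0 and 11 genes were called without Huh7, 1, 1 and 1797 without Hep3B, and 109, 778 and 3778 without MHCC97H.

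The CTLH list held the other subunits of the complex to which YPEL5 belongs, and most of it did not pass the test. Of its 10 genes, 2 rose with the combination, a share close to the 20.9% of all genes that were called higher. These were RANBP10 by 0.50 ± 0.14 on the log2 scale (SE, limma adjusted p = 0.024) and GID4, the subunit that recognises substrates, by 0.65 ± 0.19 (limma adjusted p = 0.027). The median over the list was 0.037, beside 0.086 over all genes. Limma called 0 of the 10 genes with AZD8055 and 0 with compound #57, with 0 and 1 at an unadjusted p under 0.05, and voom on the reads also called 0 and 0. Without Huh7, and likewise without Hep3B, 0 of the 10 genes were called with the combination, and without MHCC97H 1 was called higher and 1 lower.

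The growth arrest list held 28 genes known to rise when cells stop dividing or lack growth factors. With AZD8055, where 2.21% of all genes were called higher, 3 of 28 rose by limma. These were IRS2, the adaptor of the insulin receptor, by 2.59 ± 0.37 (SE, limma adjusted p = 0.027), GADD45B by 2.05 ± 0.40 (limma adjusted p = 0.038) and KLHL24 by 1.84 ± 0.39 (limma adjusted p = 0.040). With the combination, where 20.9% of all genes were called higher and 15.1% lower, 12 rose and 1 fell. GADD45B rose by 2.69 ± 0.40 (limma adjusted p = 0.0030), KLHL24 by 2.62 ± 0.39 (limma adjusted p = 0.0029), PIK3IP1, an inhibitor of PI3 kinase, by 2.57 ± 0.64 (limma adjusted p = 0.014) and IRS2 by 2.42 ± 0.37 (limma adjusted p = 0.0030). PIK3IP1 rested on 1 to 136 reads. The gene that fell was the antiproliferative TOB1, which fell by 0.87 ± 0.21 (limma adjusted p = 0.013). The list's median was 0.54 with AZD8055, 0.32 with compound #57 and 0.90 with the combination, beside 0.031, 0.047 and 0.086 over all genes. With compound #57, limma called 0 of 28, with 5 at an unadjusted p under 0.05 and 0 called by voom. Without Huh7, 0 genes of the list were called with AZD8055 or the combination, and without Hep3B 0 were called with AZD8055. Without MHCC97H, 1 rose and 1 fell with AZD8055, and likewise with compound #57.

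The p53 list held 24 targets of p53, of which 21 were in the table, and its members went both ways. With the combination, where 20.9% of all genes were called higher and 15.1% lower, 7 rose and 5 fell. The largest changes were those of TP53INP1 (2.45 ± 0.39, SE, limma adjusted p = 0.0033), the antiproliferative BTG2 (2.28 ± 0.35, limma adjusted p = 0.0030), BBC3, which codes for the cell death protein PUMA (1.90 ± 0.32, limma adjusted p = 0.0038), and the nuclease gene AEN (-1.72 ± 0.32, limma adjusted p = 0.0050). The other genes that rose were TP53I3, XPC, DDB2 and RRM2B, with changes from 0.42 to 1.07. The other genes that fell were MDM2, SESN2, BAX and TNFRSF10B, with changes from -0.83 to -0.32. Both sets are named here after their values were seen. The median over the list was 0.12. Limma called 0 of 21 with AZD8055 and 0 with compound #57, with 5 and 6 at an unadjusted p under 0.05, and voom called 0 and 0. Without Huh7, 0 genes were called with the combination, without Hep3B 3 higher and 1 lower, and without MHCC97H 4 higher and 2 lower. With compound #57, 1 gene was called higher and 1 lower without MHCC97H.

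The last list held other proteins with the zinc-binding fold of Yippee, of which 8 were in the table. With the combination, where 20.9% of all genes were called higher and 15.1% lower, 4 rose and 2 fell. CRBN, the substrate receptor through which thalidomide acts, rose by 0.96 ± 0.19 (SE, limma adjusted p = 0.0064) and DDX58, which codes for the RNA sensor RIG-I, by 0.98 ± 0.21 (limma adjusted p = 0.0081). OIP5 and MIS18A, partners in loading the centromere histone, fell by 0.80 ± 0.27 (limma adjusted p = 0.044) and by 0.79 ± 0.16 (limma adjusted p = 0.0071). The methionine sulfoxide reductases MSRB2 and MSRB3 made up the rest of the genes that rose, and they are named here after their values were seen. Limma called 0 of 8 with AZD8055 and 0 with compound #57, with 6 and 3 at an unadjusted p under 0.05, while voom called 2 with AZD8055 and 0 with compound #57. Without Huh7, 0 of the 8 were called with the combination, and without Hep3B 2 higher and 1 lower. Without MHCC97H, 1 gene was called higher with AZD8055.

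**Figure D5:**
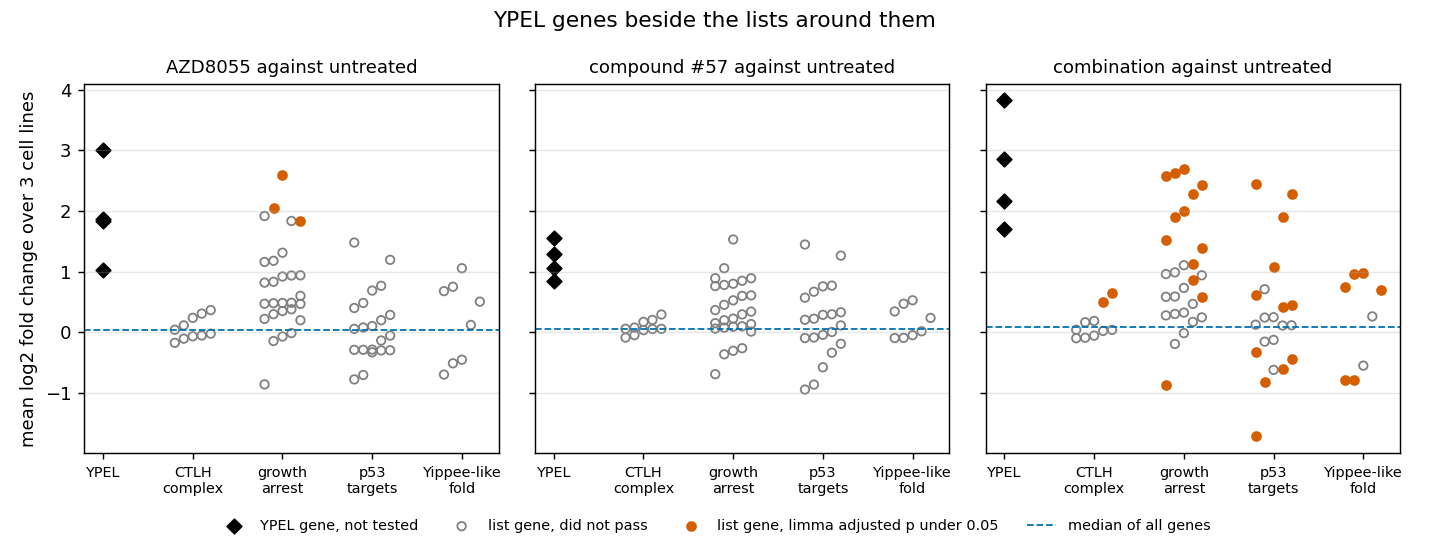
Mean log2-fold change over the 3 cell lines (y axis) for the YPEL genes (diamonds, not tested) and the genes of 4 lists (circles, filled where the limma adjusted p was under 0.05), by treatment. The dashed line is the median of all 11548 genes. With the combination the YPEL genes lie between 1.70 and 3.83, and 8 of the 10 CTLH genes lie between -0.10 and 0.18, beside a median of all genes of 0.086.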

How the data were processed

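RNA of 12 cultures was sequenced, 1 for each of 3 cell lines and 4 treatments. The authors aligned TruSeq reads (poly-A, stranded per the labels) to hg38, and the aligner, the counting and the normalization are not given in the sources used here. The authors deposited 1 log2 value per gene and library. Its scale was inferred as log2(x + 1), where x is a gene's reads brought to a total of 10000000. Under this reading 100% of values in every library came out as whole reads within 0.05. Values of 0.001 were taken as 0 reads. Totals per library were derived from these steps, and the listed genes took 98.6% to 99.3% of them. Of the listed genes, 18 bore names turned into spreadsheet dates.

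Groups followed the treatment labels. Changes were taken within a cell line, with means and SDs over the 3 lines and no test for YPEL genes. Ratios of recovered reads have 95% Clopper-Pearson intervals, which cover counting error only. The YPEL genes, the lists and the tests were chosen with earlier results of these data known. Listed genes were tested with limma 3.58.1 (lmFit, eBayes with trend, 6 residual degrees of freedom) in R 4.3.3, with treatment and cell line as terms and Benjamini-Hochberg adjusted p-values under 0.05 called. Nothing states that libraries came from separate experiments, so p-values measure the spread between these libraries over the lines. The cell line forms the pairs. Libraries of a line deviated together from the treatment means, with correlations across genes of 0.87 to 0.96 over 18 pairs of libraries. Genes were named by a rule, which took the YPEL genes, for each the 5 genes with the highest Pearson's r, all called genes of a list or the 4 with the largest mean change, and the nearest listed gene on each side. Of these, 1 gene is not reported here. Alternatives were 10 added in place of 1, centring on medians, the 75% of genes with the highest mean, each cell line left out, no cell line term, and limma's voom on the recovered reads with trimmed-mean (TMM) factors computed in R. The limma fits were tested on simulated data. Gene positions and coding sequences came from GENCODE 44 on hg38 and promoters from RefSeq on GRCh38.p14. Other calculations used Python 3.11.15, scipy 1.17.1 and pandas 2.3.3.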

Additional observations from a re-analysis of the deposited data

How the results depend on the processing

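The mean changes of the YPEL genes kept their sign in all 100 recalculations, and 96 moved by less than the SD over the cell lines. The other 4 were those of YPEL1 with 10 added before the log2, which gave 2.10 for AZD8055, 0.97 for compound #57, 2.86 for the combination and 1.89 for the combination against compound #57, since adding 10 shrinks changes of genes with few reads. Centring libraries on their medians moved these means by at most 0.07, and single lines by at most 0.11. Leaving out a cell line moved the means by -0.82 to 0.64.

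The counts from limma depended more on the settings. Without the cell line as a replicate block, 0 genes were called in each contrast and in each list, with 365, 210 and 1268 of all genes at an unadjusted p under 0.05 for AZD8055, compound #57 and the combination. With voom on the whole reads, 566, 25 and 4293 genes were called in the same order. The fold list, which had 0 calls with AZD8055, had 2 with voom, 2 after centring and 2 among the 75% of genes with the highest mean. With 1 cell line left out, between 0 and 109 genes were called for AZD8055, 0 and 778 for compound #57, and 11 and 3778 for the combination. For AZD8055 the lists then had 0 to 2 calls (growth arrest) and 0 to 1 (fold), and for compound #57 0 to 2 (growth arrest) and 0 to 2 (p53). For the combination they had 0 to 2 (CTLH), 0 to 15 (growth arrest), 0 to 6 (p53) and 0 to 7 (fold). The fewest genes of all were called without Huh7 in each contrast, and the cause was not tested. With 1 library per line and treatment, no difference within a line can be tested.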
